A study of Mus musculus with 3 samples.

Results

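The genes described here are 10 by which Sertoli cells, the supporting cells of the fetal testis, are recognised. They are the SoxE transcription factors Sox9, Sox8 and Sox10, the transcription factors Dmrt1, Gata4 and Wt1, and the products Amh, Ptgds, Cst9 and Cldn11. They were chosen by name, and each was read from every non-control probe whose transcript accession matched its symbol in a mouse RefSeq gene table. Such probes were found for 9 of the 10 genes and numbered 13, of 41174 probes and 16535 named genes on the array. No probe was matched to Sox10, which is only named here. The RNA was that of whole male gonads at embryonic day 14.5, from mice of the line MCH, and was hybridised to Agilent one-colour arrays, 2 per genotype. Gonads of the Cyp26b1 knockout had the genotype Cyp26b1-/-/Stra8+/+, those of the double knockout Cyp26b1-/-/Stra8-/-, and those of the wild type Cyp26b1+/+/Stra8+/+. Both knockout genotypes thus lacked Cyp26b1 by label, and they differed by label in Stra8. The series describes its duplicates as biological. The labels give neither the making of the alleles nor the number of embryos behind an array, and every p-value below reflects the spread of these 6 arrays alone.

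In the fetal testis the Y-linked factor Sry switches on Sox9 in the supporting cells, and Sox9, with Nr5a1, Gata4 and Wt1, switches on Amh, the hormone that removes the Müllerian ducts. The Cyp26b1 enzyme breaks down retinoic acid, and in the fetal testis it keeps retinoic acid away from the germ cells. Stra8 is a retinoic acid-responsive gene that germ cells need to enter meiosis. The comparison of the Cyp26b1 knockout with the wild type asks what changes when the enzyme is lost, and the double knockout asks what changes when Stra8 is lost as well.

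A level below is the log2 processed signal of a probe minus the log2 of the 75th percentile of its array, so it can be set against the same probe on other arrays but not against another probe. A change is a difference of such levels, with the standard error of one limma fit over all 6 arrays. A probe is called where its p-value, adjusted by Benjamini-Hochberg over the 27867 probes tested, is below 0.05. Both arrays of a genotype correlated with r between 0.994 and 0.996 over 24508 probes. All 13 Sertoli cell gene probes were well above background on all 6 arrays, and so were those of Dhh, Inha and Aard, the other genes used to check that the gonads hold Sertoli cells. The probe of neither targeted gene followed the labels against the wild type. The Cyp26b1 probe had levels of 4.27 and 3.83 in the Cyp26b1 knockout, 4.11 and 3.91 in the double knockout and 4.03 and 3.83 in the wild type. It was not called in the Cyp26b1 knockout (0.12, adjusted p 0.546) or the double knockout (0.08, adjusted p 0.773) against the wild type. The Stra8 probe had 7.19 and 7.04 in the Cyp26b1 knockout, 5.98 and 6.14 in the double knockout, and 3.73 and 2.41 in the wild type. In the double knockout Stra8 was called 7.91-fold higher than in the wild type (2.98, adjusted p 0.00387). It was called lower there than in the Cyp26b1 knockout (-1.05, adjusted p 0.0447). Whether these probes fall in the deleted parts was not analysed here, so they check nothing about the alleles, and the genotype names below mean the arrays labelled so.

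Each genotype lay on a slide of its own, so slide and genotype cannot be told apart. The Cyp26b1 knockout slide was also scanned on a day of its own, while the double knockout and wild-type slides shared a day. Several probes of one gene allowed a check of the comparisons. In 4507 genes with at least 2 tested probes, the changes of the 2 brightest probes differed by a median of 0.48 log2 units for the Cyp26b1 knockout against wild type, 0.15 for the double knockout against wild type and 0.47 for the double knockout against the Cyp26b1 knockout. Among genes with both probes called, the probes went opposite ways in 373 of 1630 genes (22.9%) for the Cyp26b1 knockout against wild type. They did so in 4 of 222 genes (1.80%) for the double knockout against wild type, and in 385 of 1324 (29.1%) for the double knockout against the Cyp26b1 knockout. Probes of one gene thus disagreed more in both comparisons that used the Cyp26b1 knockout arrays than in the one that did not, which is a description without a test. The part that slide, scan day or labelling has in this was not tested, and it bears on every change below that uses the Cyp26b1 knockout arrays.

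**Figure D1:**
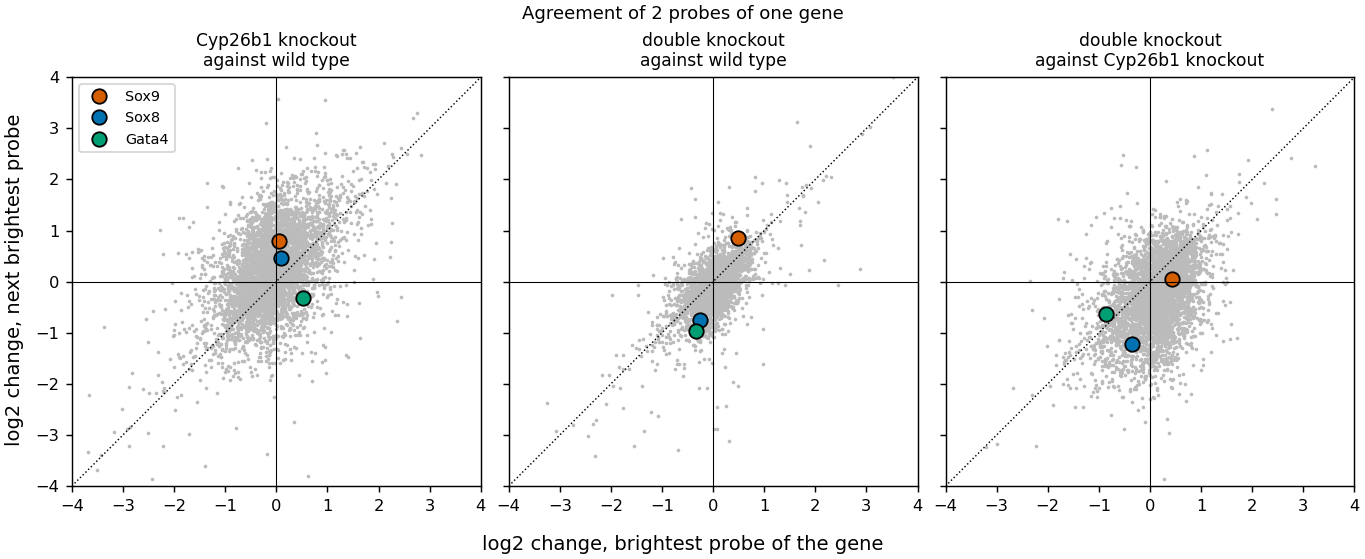
Log2 change of the brightest (horizontal axis) and next brightest (vertical axis) probe of each of 4507 genes in the 3 comparisons, with Sox9, Sox8 and Gata4 marked; the dotted line is equality, and 8, 3 and 1 genes lie outside the axes from left to right. The cloud is narrow for the double knockout against wild type (median difference 0.15) and wide in both panels that use the Cyp26b1 knockout arrays (0.48 and 0.47).

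Upstream sequence from RefSeq (build GRCm38.p6) was matched to 4 of the 10 genes: Sox8, Ptgds, Cst9 and Cldn11. The 250 bases before the start site are shown for Cldn11 and Ptgds, because both were called in all 3 comparisons and in opposite directions against the wild type. Cldn11 lies at chr3:31149670-31149919 on the + strand and Ptgds at chr2:25469750-25469999 on the - strand. Both are written 5′ to 3′, with CG dinucleotides in capitals:
Cldn11: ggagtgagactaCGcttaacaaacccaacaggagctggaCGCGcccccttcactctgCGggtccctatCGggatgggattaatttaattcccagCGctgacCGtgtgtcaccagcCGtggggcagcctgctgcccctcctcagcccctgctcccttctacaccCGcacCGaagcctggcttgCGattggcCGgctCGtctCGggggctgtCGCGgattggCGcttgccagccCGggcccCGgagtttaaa
Ptgds: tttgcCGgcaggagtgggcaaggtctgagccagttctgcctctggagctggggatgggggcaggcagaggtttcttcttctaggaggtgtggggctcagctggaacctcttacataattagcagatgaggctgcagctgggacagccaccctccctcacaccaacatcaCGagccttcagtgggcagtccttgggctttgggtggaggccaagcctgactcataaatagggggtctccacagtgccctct

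The Cldn11 window held 19 CG dinucleotides and the Ptgds window 2, against a median of 6 over 32851 upstream windows of the same length. Sox8 resembled Cldn11, with 18, and Cst9 resembled Ptgds, with 3. Both strands of the 4 windows were searched for 4 motifs. These were the SOX core, spelled ACAAT, the core of GATA factors, spelled AGATA, the nuclear receptor site, spelled AGGTCA, and the Nr5a1 site, spelled AAGGTCA, which contains the nuclear receptor site. The 1 match was the core of GATA factors in the Cst9 window, on the strand opposite the gene, at positions -222 to -218 from the start site. Of all windows, 27.7% held the SOX core, 26.6% the core of GATA factors, 14.0% the nuclear receptor site and 4.08% the Nr5a1 site. A match describes letters, not binding, and the absence of a match covers only this window.

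The Dmrt1, Cldn11 and Ptgds probes were called in all 3 comparisons, while those of Wt1 and Cst9 were not called in any. For the Cyp26b1 knockout against wild type, 5 of the 13 probes were called higher and 2 lower, against a background of 53.4% of all tested probes called (25.2% higher and 28.2% lower). For the double knockout against wild type, 3 were called higher and 3 lower, with 11.6% of all tested probes called (5.09% higher and 6.46% lower). For the double knockout against the Cyp26b1 knockout, 3 were called higher and 4 lower, with 46.0% called (23.7% higher and 22.3% lower). In each comparison 6 of the 9 genes had a called probe. That rule gives more chances to the 3 genes with several probes, and its share over all genes was not computed. The share of member probes called was near the background where the Cyp26b1 knockout arrays were used. For the Cyp26b1 knockout against wild type the median change of the 13 probes was 0.41 log2 units, beside -0.04 over all tested probes, and the arrays did not overlap for 10 of them, beside 79.0% of all tested probes. For the double knockout against wild type the median was 0.13, beside -0.02, and 11 did not overlap, beside 62.0%. Between the knockout genotypes it was -0.28, beside 0.04, and 11 did not overlap, beside 73.4%. The comparisons share arrays and are not independent of each other. In RNA of whole gonads, fewer cells of a type and less RNA per cell cannot be told apart.

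The background of all probes depended on the scaling. Set to the scaling of the authors' value table, 12.3% of the called probes were higher in the double knockout against wild type (44.1% as scaled here) and 19.3% with the double knockout set against the Cyp26b1 knockout (51.5% as scaled here), and the median over all probes moved to -0.22 and -0.27. Scaling by the median of each array gave 70.3% and 63.1%, with medians of 0.11 and 0.15. The directions of Dmrt1, Cldn11 and Ptgds were the same under each of these scalings in all 3 comparisons.

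**Figure D2:**
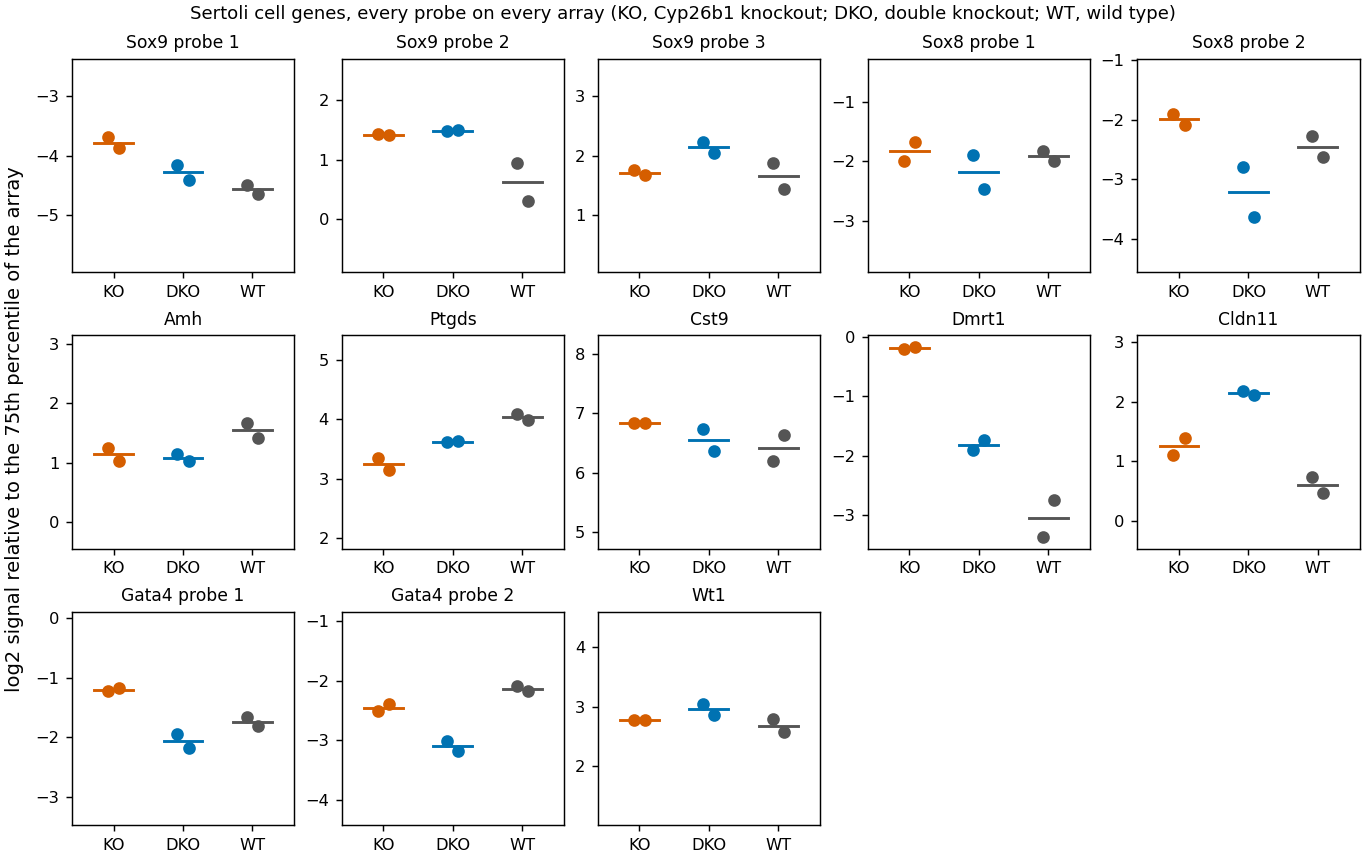
Level of each Sertoli cell gene probe (log2, with the 75th percentile of the array at 0) on every array, in the order Cyp26b1 knockout (KO), double knockout (DKO) and wild type (WT); points are arrays, bars are means of 2, and all panels span the same number of log2 units. Dmrt1, Cldn11 and Ptgds separate all 3 genotypes, and so do Sox9 probes 1 and 2, Sox8 probe 2 and both Gata4 probes. The probes of Sox9 and of Gata4 differ among themselves.

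Sox9, the factor that makes a supporting cell a Sertoli cell, was read by 3 probes that gave different answers for the Cyp26b1 knockout. Probe 1 (A_51_P451606), the dimmest, had levels of -3.69 and -3.87 in the Cyp26b1 knockout, -4.16 and -4.40 in the double knockout, and -4.49 and -4.64 in the wild type. Probe 2 (A_52_P214630) had 1.43 and 1.42 in the Cyp26b1 knockout, 1.48 and 1.50 in the double knockout, and 0.95 and 0.31 in the wild type. Probe 3 (A_52_P577484), the brightest, had 1.75 and 1.67 in the Cyp26b1 knockout, 2.23 and 2.05 in the double knockout, and 1.87 and 1.43 in the wild type. On probes 1 and 2 both knockout genotypes lay above both wild-type arrays, whereas on probe 3 the Cyp26b1 knockout lay between the wild-type arrays. Against the wild type, the Cyp26b1 knockout was called higher on probe 1 (0.79 ± 0.20, adjusted p 0.0119) and on probe 2 (0.79 ± 0.19, adjusted p 0.00911), and probe 3 gave 0.06 ± 0.15 (adjusted p 0.755; 95% interval -0.28 to 0.40). The double knockout was called higher on probe 2 (0.86 ± 0.19, adjusted p 0.0288), with 0.29 ± 0.20 on probe 1 (adjusted p 0.371) and 0.49 ± 0.15 on probe 3 (adjusted p 0.0726).

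The rise on Sox9 probe 2 in the Cyp26b1 knockout was called under 16 of 16 other settings, with changes of 0.47 to 1.12. The lowest came from leaving out wild-type replicate 2, the array with the level of 0.31. In the double knockout it was called under 11 of 16, and it was lost without replicate 2 of the wild type (0.53, adjusted p 0.0677) and without either double knockout array. The call on probe 1 was lost without replicate 1 of the Cyp26b1 knockout (adjusted p 0.0572) and without replicate 2 of the wild type (adjusted p 0.0738), and another background correction turned its sign to -0.60. For the double knockout against the Cyp26b1 knockout, probe 3 was called higher (0.43 ± 0.15, adjusted p 0.0447), while probe 1 gave -0.50 ± 0.20 (adjusted p 0.0712) and probe 2 gave 0.06 ± 0.19 (adjusted p 0.805). Probe 3 was called there under 8 of 17 other settings, and the call was lost on leaving out any 1 of the 4 arrays of these genotypes. The 3 probes read 1 gene and are not replicates of it. None was called lower in either knockout genotype against the wild type.

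Sox8, a relative of Sox9 that supports it in fetal Sertoli cells, was not called against the wild type in either knockout genotype. Its probe 1 (A_52_P269667) had levels of -1.99 and -1.67 in the Cyp26b1 knockout, -1.89 and -2.47 in the double knockout, and -1.83 and -2.00 in the wild type, and the genotypes overlapped. Its probe 2 (A_52_P269672) had -1.90 and -2.09 in the Cyp26b1 knockout, -2.79 and -3.64 in the double knockout, and -2.28 and -2.63 in the wild type, with no overlap. On probe 2 the double knockout was called lower than the Cyp26b1 knockout (-1.22 ± 0.27, adjusted p 0.00959), and the call was lost without replicate 1 of the Cyp26b1 knockout (-1.12, adjusted p 0.052). Probe 1 gave -0.35 ± 0.21 in that comparison (adjusted p 0.207). Against the wild type, probe 2 gave 0.46 ± 0.27 in the Cyp26b1 knockout (adjusted p 0.189) and -0.76 ± 0.27 in the double knockout (adjusted p 0.117). The double knockout value on probe 2 rested on single arrays, since it was -1.18 and called without double knockout replicate 1 (adjusted p 0.0265).

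Dmrt1, a factor that maintains Sertoli cell identity after birth and is also made in fetal germ cells, changed more than any other member in the Cyp26b1 knockout. Its probe (A_52_P436393) had levels of -0.20 and -0.18 in the Cyp26b1 knockout, -1.91 and -1.74 in the double knockout, and -3.36 and -2.74 in the wild type. The 3 genotypes did not overlap, with the double knockout between the others. Dmrt1 rose 7.26-fold in the Cyp26b1 knockout against wild type (2.86 ± 0.20, adjusted p 9.56e-05) and 2.34-fold in the double knockout against wild type (1.22 ± 0.20, adjusted p 0.0104). It was 3.11-fold lower in the double knockout than in the Cyp26b1 knockout (-1.64 ± 0.20, adjusted p 0.000869). The change in the Cyp26b1 knockout was called under 17 of 17 other settings (1.78 to 3.17), and the difference between the knockout genotypes likewise (-1.94 to -1.27). The rise in the double knockout was called under 15 of 17. It was lost with background correction by normexp fitted on all spots (0.50, adjusted p 0.825) and, narrowly, without double knockout replicate 2 (1.14, adjusted p 0.0505). Only 1 probe reads Dmrt1. Its change of 2.86 stands beside a 90th percentile of 1.32 for the disagreement between 2 probes of a gene in the same comparison, and its change of 1.22 in the double knockout beside one of 0.57.

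Germ cell markers also moved in these arrays, and Dmrt1 does not tell germ cells from Sertoli cells. Of 11 germ cell markers tested, 3 were called higher and 6 lower in the Cyp26b1 knockout against wild type, and 2 higher and 4 lower in the double knockout against wild type. Over all tested probes the shares called were 53.4% and 11.6%. Their summed signal was 76.4 and 62.4 in the Cyp26b1 knockout, 75.7 and 87.3 in the double knockout, and 101 and 101 in the wild type, in multiples of the 75th percentile, and none of the 11 was at background on all arrays. The sum follows its brightest probes, while the markers moved both ways. In the Cyp26b1 knockout Mael fell by 1.07 (adjusted p 0.00017) and Sycp3 rose by 0.99 (adjusted p 0.00117). Among them Dnmt3l, a partner of the de novo DNA methyltransferases of male germ cells, fell by 7.03 log2 units in the Cyp26b1 knockout (adjusted p 5.81e-05) and fell by 5.25 in the double knockout (adjusted p 0.0007). Nanos2, a factor of male germ cell fate, was 7.62-fold lower in the Cyp26b1 knockout (adjusted p 0.000174) and 2.01-fold lower in the double knockout (adjusted p 0.0457). Kit, a receptor of germ cells, rose by 1.07 in the Cyp26b1 knockout (adjusted p 0.000528) and by 1.47 in the double knockout (adjusted p 0.0014). The part of germ cells in the Dmrt1 change was not tested.

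Gata4, a zinc finger factor of gonadal somatic cells, was lower in the double knockout than in the Cyp26b1 knockout on both of its probes. Probe 1 (A_51_P492355) had levels of -1.23 and -1.18 in the Cyp26b1 knockout, -1.94 and -2.19 in the double knockout, and -1.66 and -1.82 in the wild type. Probe 2 (A_52_P4201) had -2.51 and -2.40 in the Cyp26b1 knockout, -3.01 and -3.18 in the double knockout, and -2.09 and -2.18 in the wild type. The double knockout lay below the other genotypes on both probes, whereas the Cyp26b1 knockout lay above the wild type on probe 1 and below it on probe 2. The fall with the double knockout set against the Cyp26b1 knockout was -0.86 ± 0.13 on probe 1 (adjusted p 0.00203) and -0.64 ± 0.14 on probe 2 (adjusted p 0.00805). It was called on both under all other settings run except normexp fitted on all spots (-0.64 and -0.23). Against the wild type, the double knockout gave -0.33 ± 0.13 on probe 1 (adjusted p 0.148) and was called lower on probe 2 (-0.96 ± 0.14, adjusted p 0.0073), a call lost without either wild-type array (adjusted p 0.0663 and 0.0584). The Cyp26b1 knockout was called higher on probe 1 (0.53 ± 0.13, adjusted p 0.0116), which was lost without wild-type replicate 2 (adjusted p 0.0819), while probe 2 gave -0.32 ± 0.14 (adjusted p 0.0885). Gata4 thus had no single direction in the Cyp26b1 knockout against wild type.

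Wt1, a zinc finger factor of the gonadal somatic lineages that is needed for the gonad to form, was not called in any comparison. Its probe (A_52_P673458) had levels of 2.77 and 2.78 in the Cyp26b1 knockout, 3.04 and 2.87 in the double knockout, and 2.80 and 2.57 in the wild type. The Cyp26b1 knockout lay within the wild-type range, and the double knockout above it. The changes against the wild type were 0.09 ± 0.11 in the Cyp26b1 knockout (adjusted p 0.483; 95% interval -0.15 to 0.34) and 0.27 ± 0.11 in the double knockout (adjusted p 0.14; 95% interval 0.02 to 0.51). Wt1 was called under none of 17 other settings in any comparison.

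**Figure D3:**
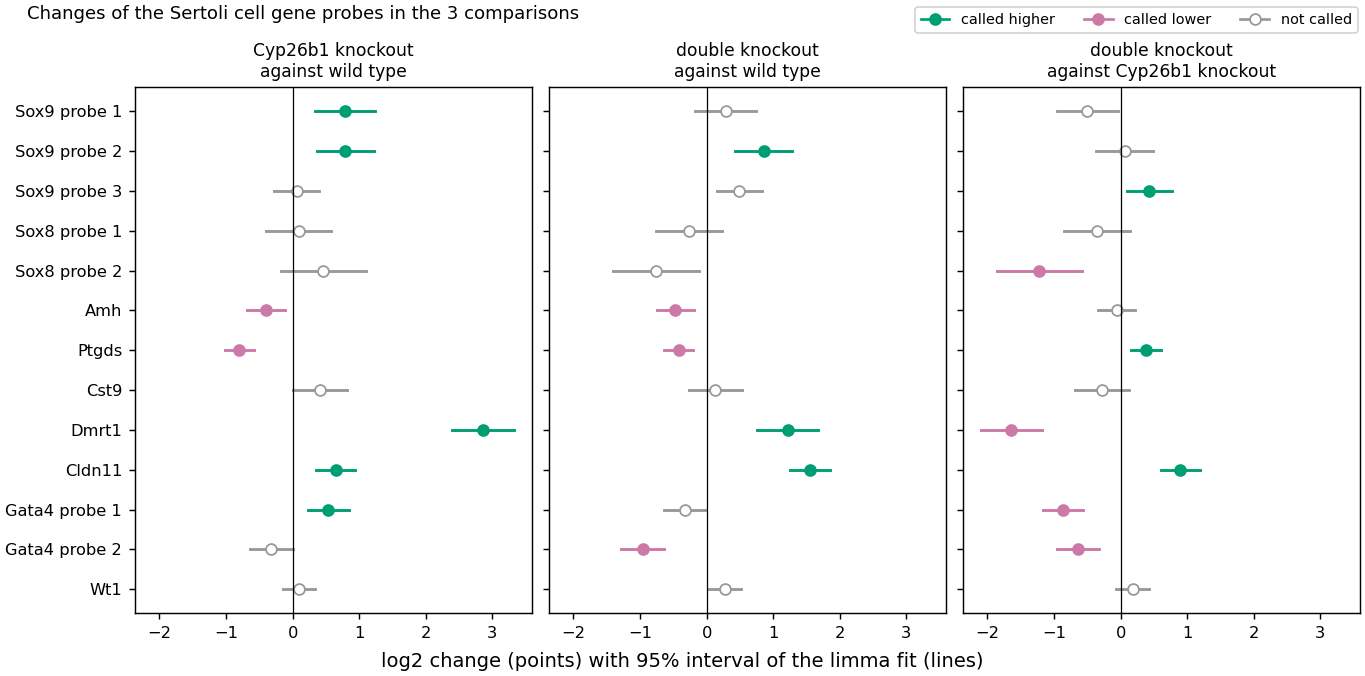
Log2 change of each Sertoli cell gene probe in the 3 comparisons, as the first genotype minus the second, with 95% intervals of the limma fit; filled points were called. Dmrt1 is highest in the Cyp26b1 knockout (2.86 against wild type) and Cldn11 in the double knockout (1.55 against wild type), while Amh and Ptgds lie below 0 against the wild type in both knockout genotypes.

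Amh, the Sertoli cell hormone, was lower in both knockout genotypes than in the wild type by a small amount. Its probe (A_51_P230075) had levels of 1.25 and 1.03 in the Cyp26b1 knockout, 1.14 and 1.02 in the double knockout, and 1.67 and 1.42 in the wild type. Both knockout genotypes lay below both wild-type arrays and overlapped each other. The fall was -0.40 ± 0.12 in the Cyp26b1 knockout (adjusted p 0.0248) and -0.47 ± 0.12 in the double knockout (adjusted p 0.0482), and the knockout genotypes differed by -0.06 ± 0.12 (adjusted p 0.688; 95% interval -0.34 to 0.22). Both calls were near the threshold. Amh was read by 1 probe. Both falls were smaller than the 90th percentiles of the disagreement between 2 probes of a gene (1.32 and 0.57). In the Cyp26b1 knockout the fall was called under 12 of 17 other settings and lost without Cyp26b1 knockout replicate 2 (-0.29, adjusted p 0.119) or wild-type replicate 1 (-0.28, adjusted p 0.158). In the double knockout it was called under 9 of 17 and lost on leaving out any 1 of the 4 arrays compared (-0.59 to -0.34).

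Ptgds, the enzyme that makes prostaglandin D2, a signal that adds to Sox9 activity in the fetal testis, fell in both knockout genotypes. Its probe (A_51_P157406) had levels of 3.34 and 3.14 in the Cyp26b1 knockout, 3.61 and 3.63 in the double knockout, and 4.09 and 3.99 in the wild type. The genotypes did not overlap, and the double knockout lay between the others. Ptgds was 1.74-fold lower in the Cyp26b1 knockout than in the wild type (-0.80 ± 0.10, adjusted p 0.000523) and 1.34-fold lower in the double knockout (-0.42 ± 0.10, adjusted p 0.0332). It was higher in the double knockout than in the Cyp26b1 knockout (0.38 ± 0.10, adjusted p 0.0153). Ptgds was read by 1 probe. These changes were smaller than the 90th percentiles of the disagreement between 2 probes of a gene (1.32, 0.57 and 1.30 in the same order). The fall in the Cyp26b1 knockout was called under 16 of 17 other settings, the exception being normexp fitted on all spots (-0.50, adjusted p 0.0745). The fall in the double knockout was called under 9 of 17 and lost without any 1 of the 4 arrays compared, at changes of -0.47 to -0.37. The difference between the knockout genotypes was 0.07 once scaled like the authors' value table (adjusted p 0.552). It was also lost without Cyp26b1 knockout replicate 2 (adjusted p 0.0549) and without either double knockout array (adjusted p 0.0603 and 0.0691).

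Cldn11, a claudin that forms the tight junctions between Sertoli cells, rose in both knockout genotypes and more in the double knockout. Its probe (A_51_P409452) had levels of 1.11 and 1.38 in the Cyp26b1 knockout, 2.18 and 2.11 in the double knockout, and 0.73 and 0.46 in the wild type. The 3 genotypes did not overlap. Cldn11 was 1.57-fold higher in the Cyp26b1 knockout than in the wild type (0.65 ± 0.13, adjusted p 0.00424) and 2.93-fold higher in the double knockout (1.55 ± 0.13, adjusted p 0.00109). It was 1.87-fold higher in the double knockout than in the Cyp26b1 knockout (0.90 ± 0.13, adjusted p 0.00148). All 3 changes were called under 17 of 17 other settings, with ranges of 0.51 to 0.78 for the Cyp26b1 knockout against wild type, 1.35 to 1.68 for the double knockout against wild type and 0.60 to 1.04 between the knockout genotypes. Only 1 probe reads Cldn11, and its change in the double knockout stands beside a 90th percentile of 0.57 for the disagreement between 2 probes of a gene. Its changes of 0.65 and 0.90 were smaller than that percentile in their own comparisons (1.32 and 1.30).

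Cst9, a cystatin made by fetal Sertoli cells, was not called in any comparison. Its probe (A_51_P506297) had levels of 6.83 and 6.83 in the Cyp26b1 knockout, 6.74 and 6.37 in the double knockout, and 6.20 and 6.64 in the wild type. The Cyp26b1 knockout lay above both wild-type arrays, and the double knockout overlapped them. The changes against the wild type were 0.41 ± 0.17 in the Cyp26b1 knockout (adjusted p 0.0783; 95% interval 0.01 to 0.81) and 0.13 ± 0.17 in the double knockout (adjusted p 0.65; 95% interval -0.27 to 0.53). Without wild-type replicate 2 the Cyp26b1 knockout was called higher (0.63, adjusted p 0.0334). The products therefore moved differently: against the wild type Amh and Ptgds were called lower and Cldn11 higher in both knockout genotypes, and Cst9 was not called.

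**Figure D4:**
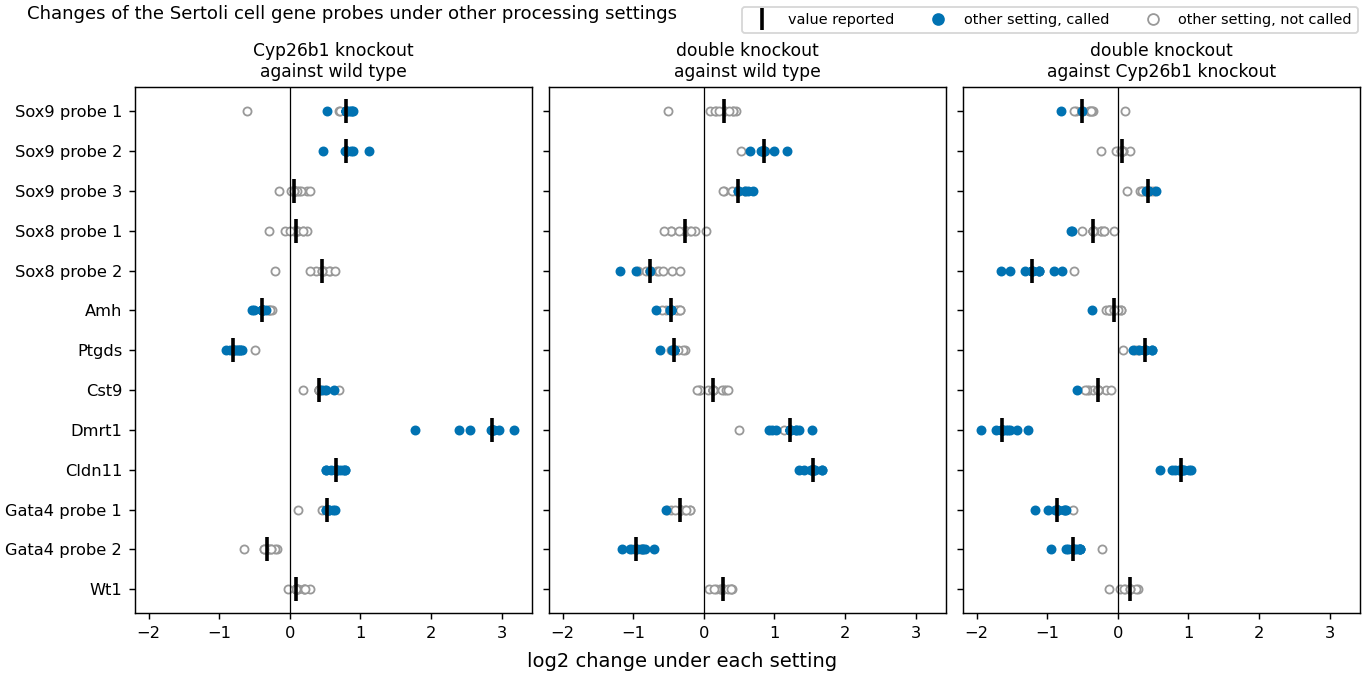
Log2 change of each Sertoli cell gene probe under the settings reported (black bars) and under the other processing settings and left-out arrays (filled where called), for the 3 comparisons. Cldn11 stays called throughout (1.35 to 1.68 in the double knockout against wild type), whereas Amh and Ptgds lose the call in the double knockout under several settings.

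Genes upstream of or around Sox9 in Sertoli cell determination were read at the brightest probe of each. Of 14 tested, 4 were called higher and 6 lower in the Cyp26b1 knockout against wild type (median change -0.15), 2 higher and 0 lower in the double knockout against wild type (median 0.00), and 7 higher and 2 lower with the double knockout set against the Cyp26b1 knockout (median 0.34). Beside these counts, 53.4%, 11.6% and 46.0% of all tested probes were called. At an unadjusted p below 0.05 the limma fit also gave 2 higher and 0 lower in the double knockout against wild type. The share of all probes below that unadjusted threshold was not computed, here or for the lists below. Sry and Ptgdr, a prostaglandin D2 receptor, were not well above background on any array. Nr0b1, a nuclear receptor that restrains Nr5a1, had levels of 1.35 and 1.18 in the Cyp26b1 knockout, 2.02 and 1.81 in the double knockout, and 0.70 and 0.62 in the wild type, with no overlap. It rose by 0.60 in the Cyp26b1 knockout (adjusted p 0.00287) and by 1.26 in the double knockout (adjusted p 0.00134). Map3k4, a kinase needed for Sry expression, was called higher in the Cyp26b1 knockout (0.29, adjusted p 0.0155) and in the double knockout (0.32, adjusted p 0.0401) at its brightest probe, but its other probe was called lower in the Cyp26b1 knockout (-1.53, adjusted p 0.00029).

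Igf1r, a receptor of the insulin family, fell by 1.12 in the Cyp26b1 knockout (adjusted p 0.000334), and all 3 of its probes were called lower there. Fgfr2, a receptor for Fgf9, rose by 0.71 in the Cyp26b1 knockout (adjusted p 0.00102), and the other probes gave 0.89 (called) and 0.75 (adjusted p 0.11). Lhx9, a factor of gonad formation, fell by 0.82 at its brightest probe (adjusted p 0.000396), but its other probe rose by 0.76 (adjusted p 0.00425). The Lhx9 probes also went opposite ways with the double knockout set against the Cyp26b1 knockout (0.64 and -1.04, both called), and Cbx2, a Polycomb protein upstream of Sry, was called higher there at its brightest probe (0.56, adjusted p 0.00183) while its other probe gave -0.44 (adjusted p 0.09). Igf1r was higher in the double knockout than in the Cyp26b1 knockout on all 3 probes (0.89 at the brightest, adjusted p 0.00121).

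Other genes made by Sertoli cells went both ways. Of 21 tested, 5 were called higher and 9 lower in the Cyp26b1 knockout against wild type (median -0.35), 5 higher and 6 lower in the double knockout against wild type (median -0.20), and 5 higher and 5 lower with the double knockout set against the Cyp26b1 knockout (median -0.02). The background of all tested probes called was again 53.4%, 11.6% and 46.0%. Hsd17b1, a steroid dehydrogenase, had levels of -2.29 and -1.73 in the Cyp26b1 knockout, -1.98 and -2.12 in the double knockout, and 1.08 and 0.60 in the wild type. It was lower in both knockout genotypes, by -2.85 ± 0.22 (adjusted p 0.000123) and -2.89 ± 0.22 (adjusted p 0.000816), and the knockout genotypes overlapped. Hsd17b3, the dehydrogenase by which fetal Sertoli cells make testosterone, had 0.42 and 0.55 in the Cyp26b1 knockout, -0.23 and -0.55 in the double knockout, and 1.31 and 1.26 in the wild type. It fell by 0.80 in the Cyp26b1 knockout (adjusted p 0.00144) and fell by 1.68 in the double knockout (adjusted p 0.0007), and the double knockout was lower than the Cyp26b1 knockout (-0.88, adjusted p 0.00143).

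Aard, a marker of fetal Sertoli cells, rose by 0.36 in the Cyp26b1 knockout (adjusted p 0.00871) and by 0.74 in the double knockout (adjusted p 0.0031). Mmd2 rose by 1.26 in the Cyp26b1 knockout (adjusted p 0.000355) and by 0.79 in the double knockout (adjusted p 0.0135). Col9a3, a collagen chain, rose by 1.55 in the Cyp26b1 knockout (adjusted p 0.000106), gave 0.20 in the double knockout (adjusted p 0.282), and was lower in the double knockout than in the Cyp26b1 knockout (-1.35, adjusted p 0.000329). Serpine2, a protease inhibitor, was likewise lower there (-0.72, adjusted p 0.00162). Hsd17b1, Hsd17b3, Aard, Mmd2, Col9a3 and Serpine2 were each read by 1 probe.

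Genes of fetal ovarian somatic cells are the counterpart of the Sertoli cell programme. Of 13 tested, 4 were called higher and 7 lower in the Cyp26b1 knockout against wild type (median -0.38), 3 higher and 3 lower in the double knockout against wild type (median -0.11), and 5 higher and 3 lower with the double knockout set against the Cyp26b1 knockout (median 0.53). Among all tested probes 53.4%, 11.6% and 46.0% were called in these comparisons. Foxl2, the factor of ovarian granulosa cells, was well above background on 1 of 6 arrays and was not tested. Wnt4, a signal of the ovarian pathway, had levels of 1.72 and 1.74 in the Cyp26b1 knockout, 1.35 and 1.18 in the double knockout, and 0.55 and 0.46 in the wild type, with no overlap. It rose by 1.23 in the Cyp26b1 knockout (adjusted p 0.00012) and by 0.76 in the double knockout (adjusted p 0.00411), and was lower in the double knockout than in the Cyp26b1 knockout (-0.46, adjusted p 0.00619). Msx2, a homeobox factor, fell by 1.93 in the Cyp26b1 knockout (adjusted p 0.000149) and fell by 0.73 in the double knockout (adjusted p 0.0292). Sp5, a target of Wnt signalling, rose by 0.64 in the Cyp26b1 knockout (adjusted p 0.0114) and by 1.27 in the double knockout (adjusted p 0.0042). Axin2, on the same list, was called lower in both (-0.73, adjusted p 0.00113, and -0.50, adjusted p 0.0262). Lef1 and Fst were called lower in the Cyp26b1 knockout (-1.02, adjusted p 0.00293, and -1.73, adjusted p 0.00126). Neither was called in the double knockout (-0.49, adjusted p 0.125, and -0.93, adjusted p 0.0583). Dapl1 was not well above background on any knockout array. It was at least 6.32-fold lower in the Cyp26b1 knockout (adjusted p 0.00058) and at least 3.51-fold lower in the double knockout (adjusted p 0.00894), where the dim side is the higher of the probe's own signal and the lowest signal well above background on each array. Lgr5, a receptor for R-spondins, was higher in the double knockout than in the Cyp26b1 knockout (0.89, adjusted p 0.000869).

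Other claudins and tight junction genes did not show the rise of Cldn11 against the wild type. Of 11 tested, 0 were called higher and 3 lower in the Cyp26b1 knockout against wild type, and 0 higher and 1 lower in the double knockout against wild type. Over all tested probes 53.4% and 11.6% were called there. At an unadjusted p below 0.05 the limma fit gave 0 higher and 4 lower in the Cyp26b1 knockout, and 2 higher and 1 lower in the double knockout. With the double knockout set against the Cyp26b1 knockout 4 were called higher and 0 lower, also at an unadjusted p below 0.05, beside 23.7% of all probes called higher. Cldn3, a claudin of Sertoli cell junctions, had levels of -3.08 and -3.54 in the Cyp26b1 knockout, -3.73 and -3.58 in the double knockout, and -2.43 and -2.09 in the wild type. It fell by 1.05 in the Cyp26b1 knockout (adjusted p 0.00414) and fell by 1.40 in the double knockout (adjusted p 0.00781). F11r, a junctional adhesion molecule, fell by 0.38 in the Cyp26b1 knockout (adjusted p 0.0134) and was higher in the double knockout than in the Cyp26b1 knockout (0.45, adjusted p 0.00842). Cldn12 was higher in the double knockout than in the Cyp26b1 knockout (0.48, adjusted p 0.00815).

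**Figure D5:**
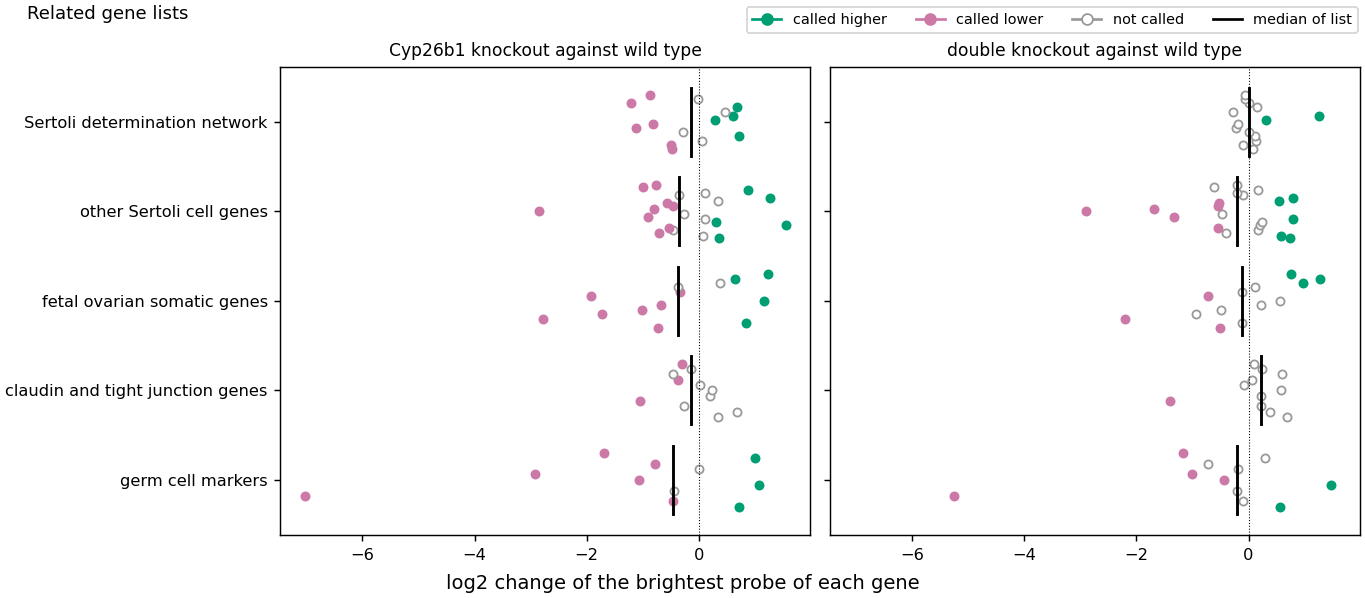
Log2 change of the brightest probe of each tested gene in 5 related lists, for the Cyp26b1 knockout (left) and the double knockout (right) against the wild type; black bars are list medians, filled points were called, and genes are spread vertically in alphabetical order. The determination network has a median of -0.15 in the Cyp26b1 knockout and 0.00 in the double knockout, and no tight junction gene of the list was called higher in either.

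Markers of the other cell types a gonad sample could hold are given for the same arrays. The summed signal of 5 fetal Leydig cell markers was 58.9 and 79.3 in the Cyp26b1 knockout, 98.8 and 83.1 in the double knockout, and 112 and 96.5 in the wild type, and none was at background on all arrays. Of the 5, read at the brightest probe of each, 0 were called higher and 3 lower in the Cyp26b1 knockout against the wild type. In the double knockout 0 were called higher and 1 lower. Of all tested probes, 53.4% and 11.6% were called in these comparisons. Cyp11a1, on this list, was not called in the Cyp26b1 knockout at its brightest probe (-0.12, adjusted p 0.612). Its other probe was called higher there (0.59, adjusted p 0.0179) but not in the double knockout (0.03, adjusted p 0.933). At an unadjusted p below 0.05 the limma fit gave 4 lower in the Cyp26b1 knockout and 2 lower in the double knockout, and 0 higher. Star, the cholesterol carrier of steroid-making cells, fell by 1.57 in the Cyp26b1 knockout (adjusted p 0.000232) and fell by 0.97 in the double knockout (adjusted p 0.00923) at its brightest probe. Its other probe was called lower in the Cyp26b1 knockout (-1.06, adjusted p 0.00212) but not in the double knockout (-0.67, adjusted p 0.0503). The Cyp17a1 and Hsd3b1 probes, which read enzymes of steroid synthesis, were called lower in the Cyp26b1 knockout (-0.53, adjusted p 0.0276, and -0.70, adjusted p 0.00924). The sums of 5 coelomic epithelium markers were 6.32 and 5.68 in the Cyp26b1 knockout, 5.78 and 5.31 in the double knockout, and 6.92 and 7.28 in the wild type. The sums of 6 endothelial markers were 6.50 and 6.72 in the Cyp26b1 knockout, 7.93 and 7.16 in the double knockout, and 7.34 and 6.78 in the wild type. The blood cell sums were 3.92 and 5.95 in the Cyp26b1 knockout, 5.32 and 4.71 in the double knockout, and 7.54 and 6.48 in the wild type. Germ cell, Leydig cell, endothelial, neural crest and glial, coelomic epithelium and blood cell sums were lower on both Cyp26b1 knockout arrays than on both wild-type arrays. So were the sums of the determination network (49.2 and 47.1 beside 56 and 52.2) and of the other Sertoli cell genes (171 and 169 beside 201 and 177). Sums of the Sertoli cell products (129 and 128 beside 95.5 and 120) and of Dmrt1, Gata4 and Wt1 (8.13 and 8.22 beside 7.38 and 6.38) were higher. A sum follows its brightest probes: 4 of the 6 endothelial markers were called higher there and 2 lower. Germ cell, coelomic epithelium and blood cell sums were also lower on both double knockout arrays than on both wild-type arrays. The part of a changed cell makeup in the changes of the Sertoli cell genes was not tested.

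Genes whose levels ran most like 3 of the members over the 6 arrays were picked by Pearson r among 12301 named genes well above background on all arrays, as a description. For Sox9 at its brightest probe these were Tcf15 (r 0.9883), Matk (0.9881) and Tor1a (0.9877). For Amh they were Lmnb2 (0.9887), Prss34 (0.9885) and Ndufb6 (0.9858). For Dmrt1 they were Pex26 (0.9995), Rhbdf2 (0.9992) and Supv3l1 (0.9978). The 6 points form 3 pairs that share a slide, so a high r needs little more than a similar relative spacing of the 3 genotype means.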

How the data were processed

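The authors deposited spot intensities of 6 arrays, which the submitters' processing notes credit to Agilent Feature Extraction 9.5; the processed signal had been background-subtracted and detrended, per the file headers, and was not scaled between arrays (75th percentiles from 997 to 1536). Between 62.6% and 69.2% of spots per array were well above background, and the number of arrays limits the precision. The authors also deposited a value table of 1 linear ratio per genotype. Differences between its log2 columns matched those computed here with a Pearson r of at least 0.9999 across 24508 probes, shifted by 0.10 (Cyp26b1 knockout against wild type), -0.20 (double knockout against wild type) and -0.30 (double knockout against Cyp26b1 knockout); its medians were 1.12 (Cyp26b1 knockout), 0.959 (double knockout) and 0.99979 (wild type). Its direction was settled, while its centring reference and scaling between arrays stayed unknown.

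Log2 processed signals, from which the array's 75th percentile was subtracted, were averaged over spots of a probe, without control and outlier spots. Accessions matched 1 symbol for 23374 of 41174 probes, in a RefSeq table of assembly GRCm38.p6, and 17800 were unnamed. A probe entered the test if both arrays of some genotype had it well above background; the tool was limma 3.58.1 under R 4.3.3 (lmFit, eBayes with trend, 3 residual degrees of freedom, two-sided), after a check on simulated data. An exact permutation of 2 arrays against 2 cannot pass the threshold. Of each related list, the up to 3 called genes with the smallest adjusted p per comparison were to be named; those in the text on other cell types were trimmed to the values that move with a result. Some genes that this rule named are not reported here. The members, lists and tests were chosen with earlier results of these data known.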

Additional observations from a re-analysis of the deposited data

How the results depend on the processing

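Of the changes of the 13 probes under other settings, 210 of 230 kept direction and call for the Cyp26b1 knockout against wild type, 179 of 230 for the double knockout against wild type and 187 of 230 for the double knockout against the Cyp26b1 knockout. These totals include the authors' value table, which gives no p-value and so no call. Its changes were counted as kept where they lay within the standard error of the reported change. With normexp background correction fitted on all spots, an alternative chosen after seeing the data because it needs the median signal, the member probes called fell to 3 (7 as reported), 3 (6) and 2 (7) in these comparisons, and all probes called to 4711 (14879), 603 (3219) and 3689 (12826). That correction also turned Sox9 probe 1 to -0.60, -0.50 and 0.10, Sox8 probe 1 to -0.29 and Sox8 probe 2 to -0.21 in the Cyp26b1 knockout against wild type. For the double knockout against wild type, 3 member probes were called without the filter on dim probes and 3 without the variance trend, and all probes called numbered 6571 in the authors' scaling and 1997 without the filter. Signs also turned for Sox9 probe 2 between the knockout genotypes (-0.03 by quantile normalization, -0.24 in the authors' scaling), for Amh there by median scaling (0.05), for Wt1 there in the authors' scaling (-0.13), and for Cst9 in the double knockout against wild type in the authors' scaling (-0.07). The cause was not tested.

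Leaving out 1 array gave 6 to 7 member probes called for the Cyp26b1 knockout against wild type, 2 to 6 for the double knockout against wild type and 5 to 7 between the knockout genotypes. The count over all probes for the double knockout against wild type ranged from 624 to 3523, with 788 without wild-type replicate 1, 624 without replicate 2, and 1841 and 1445 without double knockout replicates 1 and 2. The uncalled changes that turned sign on leaving out 1 array ranged from -0.16 to 0.28 (Sox9 probe 3) and -0.07 to 0.25 (Sox8 probe 1) and -0.02 to 0.21 (Wt1) in the Cyp26b1 knockout against wild type, from -0.56 to 0.03 (Sox8 probe 1) and -0.09 to 0.35 (Cst9) in the double knockout against wild type, and from -0.17 to 0.05 (Amh) between the knockout genotypes. The array number as a replicate block gave 7, 8 and 7 member probes called; correlations of deviations of 0.10 to 0.22 over 2 pairs do not show that the numbers pair the arrays. Slide as a block could not be fitted, because each slide held 1 genotype.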

Other observations

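Of 6 endothelial markers, 4 were called higher and 2 lower in the Cyp26b1 knockout against wild type, and 1 higher and 0 lower in the double knockout against wild type, where an unadjusted p below 0.05 gave 2 higher and 0 lower in the limma fit. Beside this list and those below, 53.4% of all tested probes were called in the Cyp26b1 knockout and 11.6% in the double knockout. Pecam1, an adhesion molecule of endothelium, rose by 1.58 in the Cyp26b1 knockout (adjusted p 0.00022), while the 2 probes of Cdh5, its cadherin, were called in opposite directions there (-0.69, adjusted p 0.00421, at the brighter, and 1.04, adjusted p 0.000846, at the other). Of 7 mesonephros and duct markers, 2 were called higher and 0 lower in the Cyp26b1 knockout (also 2 and 0 at an unadjusted p below 0.05), and 1 higher and 0 lower in the double knockout (1 and 1 unadjusted). Of 6 neural crest and glial markers, 0 were called higher and 1 lower in the Cyp26b1 knockout (0 and 3 unadjusted), and 1 higher and 0 lower in the double knockout (1 and 0 unadjusted).

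Of 5 coelomic epithelium markers, 1 was called higher and 1 lower in the Cyp26b1 knockout against wild type, and 2 higher and 1 lower in the double knockout against wild type. Krt8, a keratin, fell by 0.67 in the Cyp26b1 knockout (adjusted p 0.00381) and fell by 0.84 in the double knockout (adjusted p 0.00856) at its brightest probe, and its other probe was also called lower in both. Of 5 blood cell markers, 2 were called higher and 2 lower in the Cyp26b1 knockout, and 0 in either direction in the double knockout, where an unadjusted p below 0.05 gave 0 higher and 2 lower in the limma fit. C1qa and Csf1r, genes of macrophages, were called higher in the Cyp26b1 knockout (0.67, adjusted p 0.00366, and 0.66, adjusted p 0.00508), and Alas2, a gene of red cell precursors, lower (-0.71, adjusted p 0.027).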
